A study of Mus musculus with 4 samples.

Results

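The SLCO genes encode organic anion transporting polypeptides, and 8 of the 15 mouse gene models whose symbol begins with Slco are described here, out of 51826 gene models in the deposited table. The members are Slco1a4, Slco1a5, Slco1c1, Slco2a1, Slco2b1, Slco3a1, Slco4a1 and Slco5a1, taken by symbol, and each symbol belonged to 1 gene model. They were selected on the difference in level between LysoPS and mock in these same libraries, so their fold changes and calls are a description of the members and no test of them. The study measured messenger RNA in primary microglia from the brains of newborn C57BL/6 mice, cultured for 2 weeks as mixed brain cells and collected by shaking. Of 4 libraries, 2 came from cells treated with lysophosphatidylserine (LysoPS, a phospholipid with a single acyl chain) for 4 h and 2 from mock cells, which the labels call untreated. No dose or vehicle is given. The treatment note speaks of 1 treated replicate, but the labels of 2 samples name LysoPS, and grouping went by those. Nothing states that replicates came from separate cultures or animals, so every test here measures the spread between these libraries only, which may be technical.

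SLCO proteins sit in the cell membrane and carry large amphipathic anions, among them bile acids, thyroid hormones, steroid sulfates, prostaglandins and many drugs, without using the sodium gradient. In the brain they are best known from the blood-brain barrier and the choroid plexus, where Slco1c1 and Slco1a4 bring thyroid hormone and other anions across, while Slco2b1 transcripts are also found in microglia.

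Levels in a library are given as CPM, the count scaled by TMM-adjusted library size to a common depth, and levels between genes as TPM, which also divides by transcript length. Fold changes are LysoPS over mock on the log2 scale with the standard error of edgeR's quasi-likelihood fit over all 19057 tested gene models, and a gene is called higher or lower, or said to rise or fall, where its Benjamini-Hochberg adjusted p in that fit was under 0.05. All 8 members passed the filter on low counts. In that fit 5 members were called higher and 3 lower, where 12.8% of all tested models were called higher and 12.6% lower. For all 8, the CPM ranges of LysoPS and mock did not overlap, which was so for 67.0% of tested models. The members' median log2 fold change was 0.68, and that of all tested models was -0.01. Since the choice of members used this contrast, nothing is read from these shares.

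**Figure D1:**
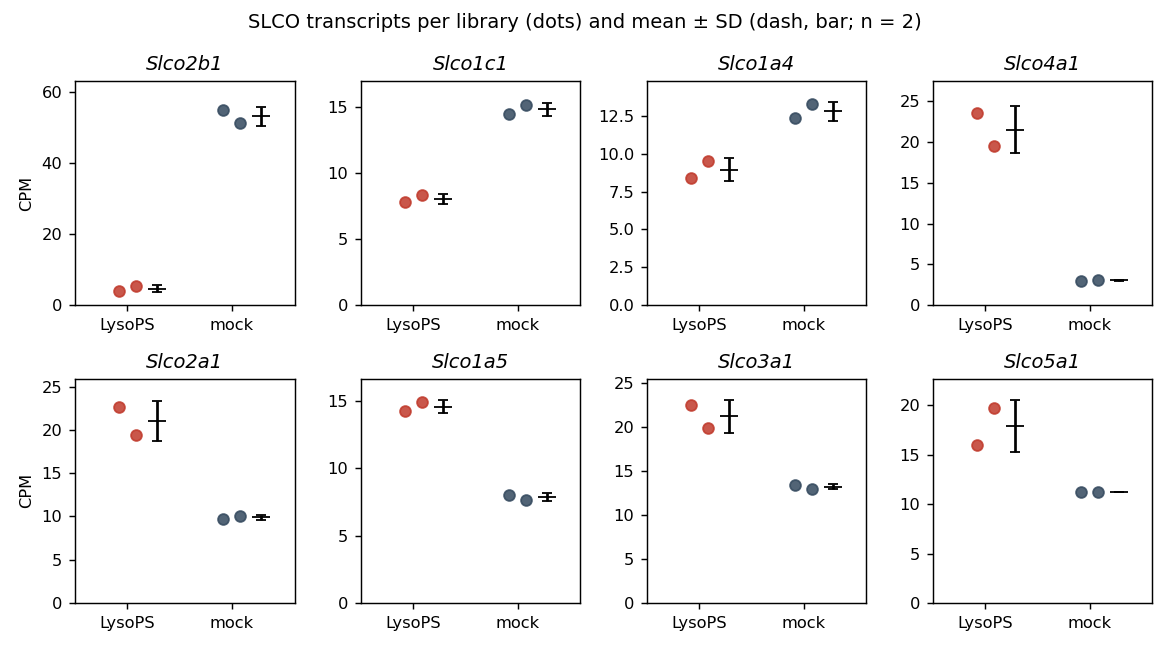
Each panel shows 1 gene, with CPM on the vertical axis from 0, the 2 LysoPS libraries in red at the left, the 2 mock libraries in dark blue at the right, and a dash with a bar for mean ± SD (n = 2). The groups do not overlap in any panel, and the gap is widest in relative terms for Slco2b1 (4.64 CPM in LysoPS, 53.1 CPM in mock) and Slco4a1 (21.5 CPM in LysoPS, 3.07 CPM in mock).

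The member that fell most was Slco2b1, whose human protein carries steroid sulfates such as estrone sulfate. Its libraries held 134 and 231 counts in LysoPS, against 1693 and 2216 in mock. In CPM these were 4.00 and 5.28 in LysoPS, against 55.0 and 51.2 in mock. The highest LysoPS library thus lay far under the lowest mock library. The log2 fold change was -3.51 ± 0.16 (SE), which is 11.4-fold lower in LysoPS. Slco2b1 (ENSMUSG00000030737) occupies chr7:99657804-99711340 of GRCm38, minus strand. The antisense model Gm15635 lies within it and held 7 and 9 counts in LysoPS, against 41 and 49 in mock. Strandedness is not given in the sources used here. Reads of these 2 models may therefore not have been told apart, though Gm15635 held few counts beside Slco2b1.

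The member that rose most was Slco4a1, whose rat and human proteins carry thyroid hormones and taurocholate. It held 787 and 851 counts in LysoPS, against 93 and 135 in mock. Its CPM were 23.5 and 19.5 in LysoPS, against 3.02 and 3.12 in mock, so the mock libraries were close to each other and low. The log2 fold change was 2.80 ± 0.15 (SE), or 6.98-fold higher in LysoPS. Slco4a1 (ENSMUSG00000038963) occupies chr2:180456245-180474867, plus strand, and overlaps no other model of the table.

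The start regions of the transporters with the largest fall and the largest rise are shown because these genes set the ends of the family's range. The sequences are from RefSeq on GRCm38.p6, run 5′ to 3′ on the gene's strand from 100 bases before the most upstream RefSeq start in the table to 30 bases after it, and capitals mark motif matches. Slco2b1 is chr7:99711311-99711440 on the minus strand, and Slco4a1 is chr2:180456145-180456274 on the plus strand.
Slco2b1: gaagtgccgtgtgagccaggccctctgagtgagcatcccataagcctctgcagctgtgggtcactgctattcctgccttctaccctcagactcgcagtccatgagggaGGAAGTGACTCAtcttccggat
Slco4a1: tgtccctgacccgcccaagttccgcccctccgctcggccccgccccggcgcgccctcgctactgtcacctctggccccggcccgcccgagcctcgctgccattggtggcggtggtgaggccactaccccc
In the Slco2b1 run the capitals join a GGAAGT, the core bound by ETS factors such as PU.1, beginning 9 bases into the transcript, and a TGANTCA, the AP-1 motif, beginning 14 bases into it, and the matches overlap by 1 base. The Slco4a1 run held no match to any motif searched. It is rich in CpG, with 24 CpG and 65.3% GC over its full 300-base window, against 5 CpG and 57.0% GC in that of Slco2b1 and medians of 7 CpG and 52.7% GC over all promoters.

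The search covered 10 windows of 300 bases (250 before to 50 after a RefSeq start) for the 6 members found in the promoter table, on both strands. Slco3a1 and Slco5a1 were not among them. GGAAGT was found for 2 members (Slco2b1 and Slco1c1) and in 23.8% of 32851 windows of all genes. TGANTCA was found for 2 members (Slco2b1 and a second Slco1a5 window) and in 7.81% of windows, and an NF-kappaB motif for 0 members and in 4.79%. The core ACGTG of hypoxia and E-box motifs was found for 2 members (Slco1c1 and Slco2a1) and in 19.6%, and TATAAA, the TATA box, for 3 members and in 13.6%. In Slco2a1 the TATAAA began 29 bases before the RefSeq start. GENCODE M21 begins the model of that gene farther upstream, at 102988712, while the window searched begins at 103008237. No motif searched was found for all 3 members that fell, nor for all 3 members with a window that rose. A match describes the letters of a window and not a bound site.

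Thyroid hormone carriers went both ways. Slco1c1, a thyroxine transporter of brain capillaries and astrocytes, had 7.80 and 8.35 CPM in LysoPS, against 14.5 and 15.2 CPM in mock. Its log2 fold change was -0.88 ± 0.11 (LysoPS over mock 0.543), and replicates lay close together in each group. Slco1a4, a broad carrier of the blood-brain barrier and the liver, had 8.39 and 9.49 CPM in LysoPS, against 12.4 and 13.2 CPM in mock. Its log2 fold change of -0.52 ± 0.12 was the smallest among the members, and the call was lost without mock replicate 1 (-0.57), without mock replicate 2 (-0.47) or without LysoPS replicate 1 (-0.44). The transcript length implied by its deposited counts and FPKM varied by 1.29 times between libraries, from 3032 to 3900 bases. In TPM, Slco1a4 stood at 4.56 and 6.40 in LysoPS and at 9.82 and 9.74 in mock, a log2 ratio of means of -0.84.

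Slco1a5, an intestinal and choroid plexus carrier of bile acids and thyroid hormones, moved the opposite way from its near copy Slco1a4. It had 14.2 and 14.9 CPM in LysoPS, against 8.05 and 7.65 CPM in mock, with a log2 fold change of 0.89 ± 0.11. Replicates differed by less than 1 CPM in each group. Slco3a1, a broadly expressed gene whose human protein carries prostaglandins and thyroxine, held 756 and 871 counts in LysoPS, against 415 and 563 counts in mock. It averaged 21.3 ± 1.88 CPM in LysoPS and 13.2 ± 0.321 CPM in mock (SD, n = 2 each), with a log2 fold change of 0.68 ± 0.11. That call was lost without mock replicate 1 (0.71) and without mock replicate 2 (0.66).

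Of 14 other genes of thyroid hormone transport, conversion and response, 12 were tested. Of these 2 were called higher and 2 lower, where 25.5% of all tested models were called in either direction. The median was 0.02 on the log2 scale. The aromatic amino acid and thyroid hormone transporter Slc16a10 reached 90.7 ± 7.71 CPM in LysoPS against 27.7 ± 1.42 CPM in mock (SD, n = 2 each; log2 fold change 1.71, edgeR adjusted p = 0.000771). Slc7a8, a light chain of amino acid exchangers that also carries thyroid hormone, rose by 0.60 (adjusted p = 0.00604). The receptor gene Thra fell by 0.59 (adjusted p = 0.0066), and the inactivating deiodinase Dio3, at 0.388 CPM in LysoPS and 1.38 CPM in mock, fell by 1.84 (adjusted p = 0.0228).

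Slco2a1, the prostaglandin transporter that takes up prostaglandins for breakdown, rose. It had 22.6 and 19.4 CPM in LysoPS, against 9.71 and 10.1 CPM in mock, with a log2 fold change of 1.09 ± 0.12, or 2.12-fold higher. Its enzyme partner moved the other way. Hpgd, which inactivates prostaglandins once inside the cell, had 13.2 ± 0.483 CPM in LysoPS and 49.6 ± 0.512 CPM in mock (log2 fold change -1.91, adjusted p = 0.000457). Of 21 tested genes of prostaglandin synthesis, export, breakdown and reception, 8 rose and 6 fell, with a median of 0.15. Among all tested models 12.8% were called higher and 12.6% lower. The inducible cyclooxygenase Ptgs2 rose by 3.68 to 89.0 ± 16.8 CPM in LysoPS, against 6.95 ± 0.678 CPM in mock (adjusted p = 0.00048). The receptor Ptger4 rose by 1.54 (adjusted p = 0.00238). The prostaglandin D synthase Ptgds, at 488 CPM in LysoPS and 986 CPM in mock, fell by 1.01 (adjusted p = 0.00131).

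Slco5a1, a member whose substrates are poorly known, had 16.0 and 19.8 CPM in LysoPS, against 11.3 and 11.3 CPM in mock. Its log2 fold change was 0.67 ± 0.14, and the call was lost without mock replicate 1 (0.67) and without mock replicate 2 (0.67). Its implied length was 9482 and 9332 bases in LysoPS, against 7281 and 8271 bases in mock. In TPM, which divides by length, it stood at 3.57 and 4.72 in LysoPS and at 3.73 and 3.40 in mock, so on that scale the groups overlapped, with a log2 ratio of means of 0.22. For the other members except Slco1a4 the implied length varied by 1.03 to 1.14 times.

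**Figure D2:**
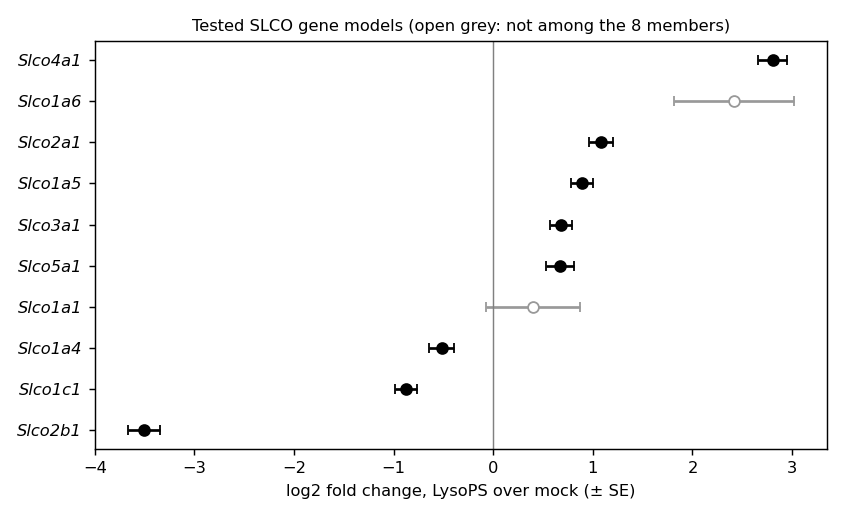
Points are log2 fold changes of LysoPS over mock with bars for ± SE from the fit over all genes, filled black for the 8 members and open grey for Slco1a1 and Slco1a6. Slco4a1 stands at 2.80 and Slco2b1 at -3.51, with the other members between -0.88 and 1.09, and the grey points have the widest bars.

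Of the 7 Slco models that are not members, 2 had enough counts to be tested and 3 had no count in any library. Slco1a6 held 27 and 51 counts in LysoPS, against 2 and 12 in mock, and was called higher (log2 fold change 2.42 ± 0.60, adjusted p = 0.0418). Slco1a1 held 17 and 26 counts in LysoPS, against 8 and 24 in mock, and did not pass (0.40 ± 0.47, adjusted p = 0.573). Slco1b2, a liver transporter, held 2 counts in each LysoPS library, against 2 and 4 in mock, and Slco4c1 held 2 counts in a single LysoPS library. The implied length of Slco1a6 varied by 1.89 times, so its value is uncertain beyond its few counts.

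These low models matter because 6 of the 15 models stand side by side on chromosome 6, within 799 kb. In map order from Slco1c1 (141524368 to 141570177), Slco1c1 and Slco1a4 fell, Slco1a1 did not pass, and Slco1a6 and Slco1a5 (142234227 to 142322981) at the far end rose. The nearest tested genes outside, Pde3a on the side of Slco1c1 and Pyroxd1 on the side of Slco1a5, did not pass (log2 fold changes 0.26 and -0.02, adjusted p = 0.239 and 0.934). Iapp, which lies within Slco1a5 on the other strand, held 5 and 7 counts in LysoPS and 0 in both mock libraries.

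**Figure D3:**
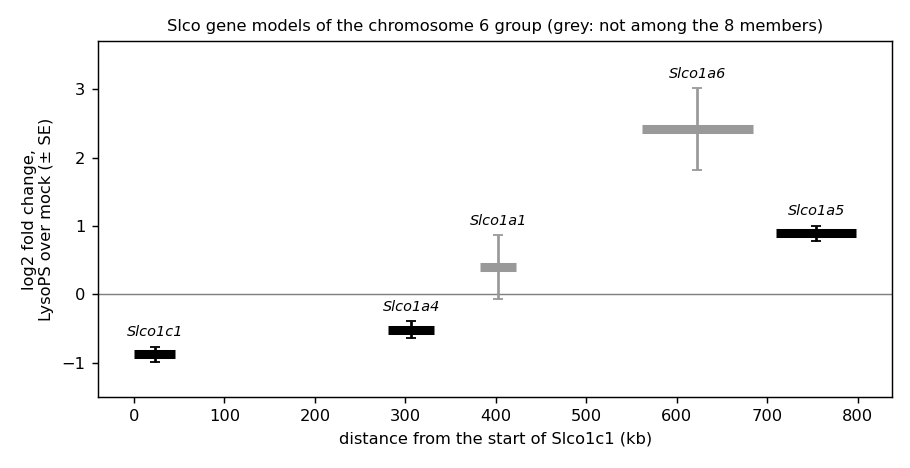
The horizontal axis is distance in kb from the start of Slco1c1, each thick line spans a tested gene model, and its height on the vertical axis is the log2 fold change of LysoPS over mock with ± SE, black for members and grey for the others. Slco1c1 (-0.88) and Slco1a4 (-0.52) lie under 0 on the left, and Slco1a6 (2.42) and Slco1a5 (0.89) lie above 0 on the right.

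The 4 Slco1a genes among them are close copies, which bears on how reads were assigned. The coding sequences of Slco1a4 and Slco1a5, both 2010 bases in GENCODE M21, were 89.4% identical, and those of Slco1a5 and Slco1a6 were 86.5% identical. Of all 50-base words in the annotated transcripts of Slco1a5, 3.51% also occurred in another Slco gene, as did 1.61% of those of Slco1a4 and 2.22% of those of Slco1a6. Their counts are therefore uncertain to the extent that reads were shared. The members Slco1c1, Slco2a1, Slco2b1, Slco3a1, Slco4a1 and Slco5a1 shared no such word with another Slco gene. Slco2a1 and Slco2b1 were 64.7% identical, and every other pair of members was at most 62.7% identical.

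The order of the members by level was not the same in the groups. In LysoPS the order by mean TPM was Slco4a1 (14.9), Slco3a1 (11.9), Slco1a5 (10.9), Slco2a1 (5.75), Slco1a4 (5.48), Slco1c1 (5.31), Slco5a1 (4.15) and Slco2b1 (2.06). In mock it was Slco2b1 (26.9), Slco1c1 (10.4), Slco1a4 (9.78), Slco3a1 (8.22), Slco1a5 (6.74), Slco5a1 (3.56), Slco2a1 (3.10) and Slco4a1 (2.45). The member at the top in mock was thus at the bottom in LysoPS, and the reverse. In mock the libraries of no neighbouring pair overlapped, whereas in LysoPS the ranges of Slco3a1 and Slco1a5 overlapped, as did those of each neighbouring pair from Slco2a1 down to Slco5a1. In mock Slco2b1 stood above 75.2% of the models with a count, and in LysoPS above 43.8%.

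The summed level of the 8 members changed less than its make-up. It was 59.7 and 61.2 TPM in LysoPS, against 71.2 and 71.0 TPM in mock. Slco2b1 gave 2.88% and 3.91% of that sum in LysoPS, against 38.7% and 36.9% in mock. Slco4a1 gave 26.0% and 23.2% in LysoPS, against 3.16% and 3.74% in mock. Without Slco2b1 the others summed to 58.0 and 58.8 TPM in LysoPS, against 43.7 and 44.8 TPM in mock.

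**Figure D4:**
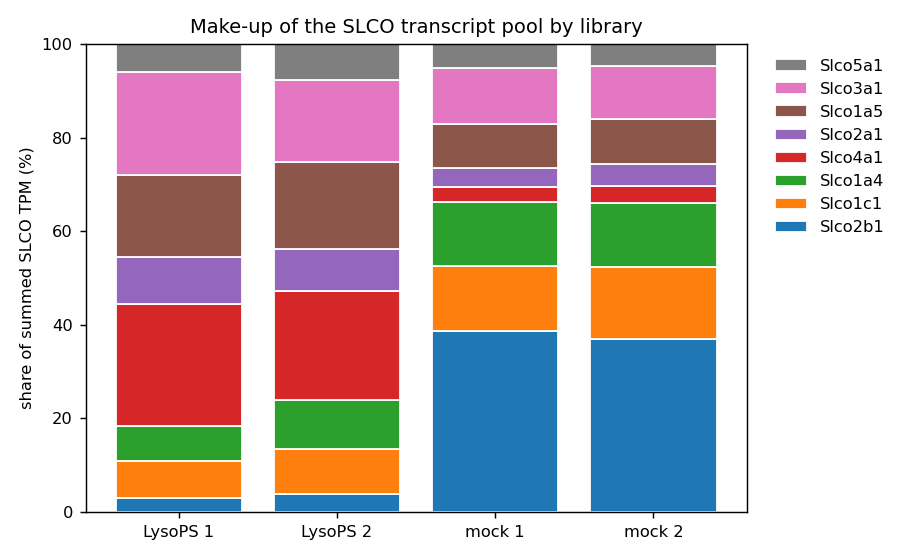
Stacked bars give each member's percent of the summed TPM of the 8 members in each library, the 2 LysoPS libraries left of the 2 mock libraries. Slco2b1 at the base fills under 4% of the LysoPS bars and over 36% of the mock bars, and Slco4a1 in red fills 26.0% and 23.2% of the LysoPS bars and 3.16% and 3.74% of the mock bars.

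Other carriers of organic ions and conjugates were set beside the family. Of 13 SLC22 genes, which encode the organic anion and cation transporters of kidney and brain barriers, 10 were tested. Of these 7 fell and the other 3 did not pass, where 12.6% of all tested models were called lower. All 10 fold changes were negative on the log2 scale, and their median was -0.59. Slc22a8, an organic anion transporter, had 14.1 ± 1.13 CPM in LysoPS and 39.1 ± 2.02 CPM in mock (log2 fold change -1.47, adjusted p = 0.00136), and Slc22a6 fell by 1.81 (adjusted p = 0.00193). Slc22a2, an organic cation transporter, fell by 1.62, and Slc22a17, which encodes a receptor for lipocalin 2, fell by 0.57 (adjusted p = 0.00527 and 0.00749). Of 12 ABC efflux pumps for drugs and conjugates, 10 were tested, 5 rose and 1 fell, with a median of 0.39. Among all tested models 12.8% were called higher. Abcc1, which exports glutathione conjugates and leukotrienes, had 193 ± 4.87 CPM in LysoPS and 59.2 ± 0.303 CPM in mock (1.70, adjusted p = 0.000378). Abcc3, an exporter of conjugated bile acids, rose by 0.93 and Abcc4, which also exports prostaglandins, by 0.69 (adjusted p = 0.0026 and 0.00819), and Abcb1b, which encodes a P-glycoprotein, rose by 0.63 (adjusted p = 0.0105).

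A list drawn up for steroid sulfates, the class of substrate carried by Slco2b1, went both ways. It also holds enzymes of other pathways, such as Hsd3b7 of bile acid synthesis. Sult1e1 held no count, and Slc10a6 held 2 counts in mock replicate 1 only. The list therefore says little of steroid sulfates alone. Of its 10 tested genes, 3 rose and 2 fell, with a median of 0.06. Over all tested models 25.5% were called in either direction. The conjugating enzyme Ugt1a7c rose by 0.79 (adjusted p = 0.0059), and Papss2, which makes the sulfate donor, fell by 0.58 (adjusted p = 0.0126). The sulfotransferases split, with Sult1a1 at 2.37 CPM in LysoPS and 4.76 CPM in mock (lower, adjusted p = 0.0224) and Sult4a1 at 4.81 CPM in LysoPS and 3.09 CPM in mock (higher, adjusted p = 0.0378).

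Slco2b1 was also read beside homeostatic microglia genes, which resting microglia express. Of 24 tested, 4 rose and 10 fell, with a median of -0.24, where 12.8% of all tested models were called higher and 12.6% lower. The LysoPS receptor gene Gpr34, named in the title of the series, fell by 3.55 (adjusted p = 0.000965) and the ADP receptor gene P2ry13 by 1.59 (adjusted p = 0.00168), while Fcrls rose by 0.90 (adjusted p = 0.00137). Over the 4 libraries, the gene whose centred log2 CPM profile lay nearest to that of Slco2b1 was Gpr34 (Euclidean distance 0.174), followed by the potassium channel gene Kcna2 (0.238), whose implied length varied by 2.95 times, Fgf15 (0.332), Dapl1 (0.429) and the model Gm15880 (0.489). Of these, Fgf15, Dapl1 and Gm15880 held at most 30 counts in any mock library and none in LysoPS. Nearest to Slco4a1 were Gm45190 (0.0633, without a count in mock), Ttr (0.0931), the phosphoinositide 3-kinase subunit gene Pik3r6 (0.136), Rnd1 (0.144) and Tmem72 (0.155). The implied length of Pik3r6 varied by 1.49 times and that of Tmem72 by 1.32 times. With 4 libraries in 2 groups, such a distance mainly says that log2 CPM changes and replicate differences were alike. The prior count of 2 in log2 CPM shrinks the change of genes with few counts. In the fit, the log2 fold change was -7.56 for Fgf15 against -3.51 for Slco2b1, and 6.52 for Gm45190 against 2.80 for Slco4a1.

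**Figure D5:**
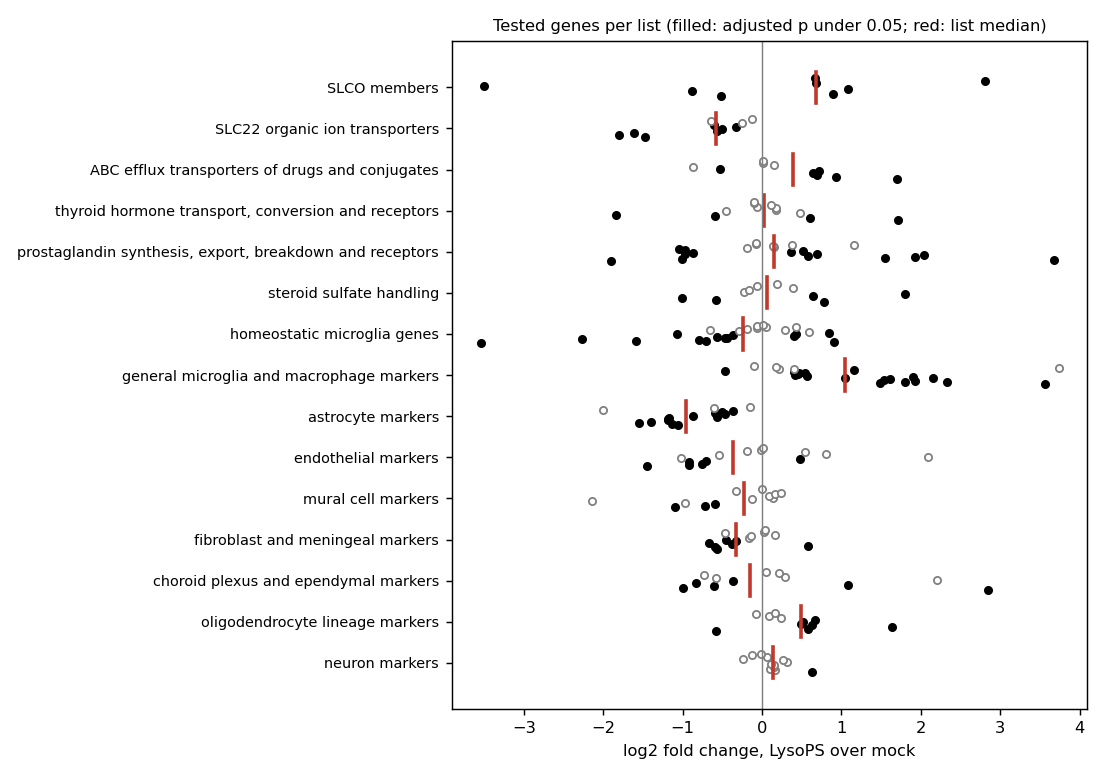
Each row is a gene list, each point a tested gene at its log2 fold change of LysoPS over mock, filled where its adjusted p was under 0.05, and the red line is the list's median. The SLCO members span -3.51 to 2.80 around a median of 0.68, the SLC22 list lies at a median of -0.59, the general microglia and macrophage markers at 1.05 and the astrocyte markers at -0.96.

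Markers of several cell types moved with the treatment, and in bulk RNA fewer cells of a type and less RNA per cell cannot be told apart. The share of all tested models called was 12.8% higher and 12.6% lower. Of 23 models for general microglia and macrophage markers, 17 rose and 1 fell, and their summed level was 19272 and 17211 CPM in LysoPS, against 6790 and 6300 CPM in mock. The most abundant was Lyz2, at 9818 CPM in LysoPS and 2814 CPM in mock. All 16 astrocyte markers were tested, 13 fell and 3 did not pass, and they summed to 6447 and 7302 CPM in LysoPS, against 12963 and 11834 CPM in mock. Gfap led them with 2790 CPM in LysoPS and 5827 CPM in mock. Gja1, among the 3 that did not pass, differed widely between replicates. It had 141 and 375 CPM in LysoPS, against 1450 and 619 CPM in mock. Of 14 tested endothelial markers 5 fell and 1 rose, with a summed level of 400 and 430 CPM in LysoPS against 633 and 627 CPM in mock. Cdh5 was the most abundant of them, at 158 CPM in LysoPS and 301 CPM in mock, and Cldn5, which defines brain endothelium, had 0 counts in both LysoPS libraries, against 2 and 0 counts in mock.

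Set against those sums, the members fell into different patterns. Per 1000 CPM of general microglia and macrophage markers, Slco2b1 stood at 0.208 and 0.307 CPM in LysoPS, against 8.09 and 8.13 CPM in mock, so its fall was larger relative to these markers than on its own. Slco4a1 stood at 1.22 and 1.13 CPM in LysoPS per 1000 CPM of the same markers, against 0.445 and 0.495 CPM in mock. The other 6 members were all lower in LysoPS on that scale. Its sum holds much Lyz2 and Adgre1, both of which rose (Adgre1 at 1978 CPM in LysoPS and 167 CPM in mock). Per 1000 CPM of homeostatic microglia genes, Slco1a5, Slco2a1, Slco3a1 and Slco5a1 were higher in LysoPS (log2 ratios of means 1.11, 1.29, 0.89 and 0.88). Slco1a4, Slco1c1 and Slco2b1 were lower there (-0.31, -0.67 and -3.30), and Slco4a1 was higher (3.01). The homeostatic genes summed to 4049 and 3816 CPM in LysoPS, against 4739 and 4369 CPM in mock. Sparc alone held 1325 and 1319 CPM of it in LysoPS, against 1863 and 1740 CPM in mock. These ratios thus rest in large part on Sparc, and whether its RNA came from microglia was not tested. Per 1000 CPM of astrocyte markers, Slco1c1 stood at 1.21 and 1.14 CPM in LysoPS, against 1.12 and 1.29 CPM in mock, so relative to these markers the groups overlapped. Slco1a4 stood at 1.30 and 1.30 CPM in LysoPS on the same scale, against 0.954 and 1.12 CPM in mock. The part of cell type make-up in the members' changes was not tested.

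Choroid plexus epithelium expresses Slco1a5 and other carriers, and 12 of its markers and those of ependymal cells were tested. Of these 2 rose and 4 fell, with a median of -0.16, where 12.8% of all tested models were called higher and 12.6% lower. The sum of these markers was 1273 and 1046 CPM in LysoPS, against 513 and 513 CPM in mock. Ttr, the thyroxine-binding transthyretin, was the most abundant of them in LysoPS, with 861 ± 157 CPM in LysoPS and 119 ± 2.64 CPM in mock (log2 fold change 2.85, adjusted p = 0.000532). Its libraries held 972 and 749 CPM in LysoPS, against 117 and 121 CPM in mock, so the sum rose through Ttr. Aqp1, a water channel of the same epithelium, stood at 71.5 CPM in LysoPS and 69.2 CPM in mock (0.05, adjusted p = 0.671). Foxj1, the most abundant gene of the list in mock, was among those that fell. It stood at 162 CPM in LysoPS and 246 CPM in mock (-0.60, adjusted p = 0.00393). The list mixes choroid plexus and ependymal genes, so its median describes neither cell type alone. Mural cell, fibroblast and meningeal, oligodendrocyte lineage and neuron markers had medians of -0.23, -0.34, 0.49 and 0.13. The fibroblast and meningeal markers summed to 13017 and 13364 CPM in LysoPS, against 15597 and 15705 CPM in mock. Of the 13 tested, 1 rose and 6 fell, beside the same 12.8% and 12.6% over all tested models.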

How the data were processed

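The submitters' processing notes name HISAT2, StringTie, Trimmomatic 0.36 and FastQC 0.11.2, without roles, and the build GRCm38. Per the file headers, 1 table gives counts, TPM and FPKM per gene model and library. The deposited counts are whole numbers without normalization and totalled 34689045 and 45193959 in LysoPS, against 30001098 and 41572340 in mock. The deposited TPM was used for levels between genes, and the deposited FPKM with the counts for implied transcript lengths.

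Counts were tested with edgeR 4.0.16 in R 4.3.3: filterByExpr defaults (a minimum count of 10), TMM, quasi-likelihood F test of LysoPS against mock, two-sided, 2 residual degrees of freedom, adjusted by Benjamini-Hochberg over 19057 models at 0.05. The code of the fit was run on simulated counts drawn with a single dispersion for all genes. That run says nothing of genes whose replicates differ more widely. The standard error is the fold change divided by the root of F. Profile distances used log2 CPM with a prior count of 2. Alternatives used DESeq2 1.42.0, limma 3.58.1, other filters and scalings, a replicate block and each library left out.

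GENCODE M21 gives all 15 Slco models the coordinates of the table. Coding sequences were aligned globally with Biopython 1.88. Members and lists were chosen with earlier results of these data known. Named genes were the members, other Slco models, up to 4 called genes with the smallest p per pathway list, the most abundant markers and the 5 nearest profiles. Cldn5, Clic6, Cx3cr1, Gja1, Sparc, Sult1e1, Slc10a6, Hsd3b7, Pde3a, Pyroxd1, Iapp and Gm15635 were named outside that rule, with their values known. Some genes that the rule would name are not reported here.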

Additional observations from a re-analysis of the deposited data

How the results depend on the processing

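All 8 members kept their direction under each of 11 alternatives, and 81 of 88 refitted values also kept their side of the threshold. The 7 lost calls were those of Slco1a4, Slco3a1 and Slco5a1 with 1 library left out. Leaving out 1 library gave 3 to 5 members called higher and 2 to 3 called lower, and from 2165 to 5356 genes called in all (1161 to 2768 higher, 986 to 2588 lower). The 2165 and 2223 came without mock replicate 2 and without mock replicate 1, where 3 members were called higher and 2 lower. Such fits assume that the lone library of a group varies like those of the other. Over all alternatives the log2 fold change of Slco2b1 lay between -3.72 and -3.33 and that of Slco4a1 between 2.66 and 2.94. Replicate numbers are not stated to pair the libraries, and the replicate differences of the groups correlated at 0.0775 across genes. A single gene could still differ alike in both groups. Replicates 1 and 2 of Cx3cr1, a homeostatic microglia gene, had 176 and 19.5 CPM in LysoPS, against 132 and 13.4 CPM in mock. With the replicate block 5433 genes were called, and the members counted 5 higher and 3 lower as without it. Library totals without scaling factors, added after the data were seen, moved the median of all genes to -0.11, with 1821 genes higher and 3226 lower, and the members counted the same 5 and 3. In LysoPS replicate 2 alone, 3 of 8 members held the rank they had by mean TPM. With 2 libraries a group, small changes such as those of Slco1a4 rest on few values.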

Other observations

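Prostaglandin receptors, named here after their values were seen, went both ways beside the rise of Slco2a1. Ptgir, the prostacyclin receptor, had 141 and 137 counts in LysoPS, against 31 and 34 in mock (log2 fold change 2.04, edgeR adjusted p = 0.00678). Ptgfr (-0.97, adjusted p = 0.00717), Ptgdr (-0.87, adjusted p = 0.0105) and Ptger3 (-1.05, adjusted p = 0.0258) fell. Ptges, an inducible prostaglandin E synthase, rose by 1.92 (adjusted p = 0.00374). Ptger1 had 249 and 212 counts in LysoPS, against 165 and 14 in mock, and did not pass (adjusted p = 0.457). The transcript length implied by its counts and FPKM differed by 3.51 times between libraries, and that of Ptgfr and Ptger3 by 1.25 and 1.29 times.

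Hsd3b7, an enzyme of bile acid synthesis, had 344 and 1129 counts in LysoPS, against 178 and 200 in mock (log2 fold change 1.80, adjusted p = 0.0418), and its LysoPS libraries stood apart after scaling too, at 10.3 and 25.8 CPM.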
